A study of Mus musculus with 24 samples.

Results

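The myogenic regulatory factors were followed through 24 RNA-seq libraries of mouse back skin. They are Myod1, Myog, Myf5 and Myf6, together with Pax7, the factor that marks the stem cells of muscle. Members were taken by symbol from the exon and intron rows of the deposited count table, and each of the 5 had 1 row of either kind among 29758 symbols. The mice were wild-type C57BL/6NCrl males of about 8 weeks, an inbred laboratory strain, with the hair cycle in its second resting phase (telogen), and their lights were on for 12 h of each day. All animals had been on restricted feeding for 18 to 21 days, so no library came from mice with food at all hours. The groups differed in the 4 h window with food: ZT0 to ZT4 in ED, ZT5 to ZT9 in MD and ZT12 to ZT16 in EN, where ZT counts hours from lights on. Each of the 3 groups had 8 libraries, taken every 4 h from ZT0 to ZT28, with 1 library at each time, made from pooled RNA of 2 to 4 mice. The series title names restricted feeding, the skin's clock and damage by UVB light. Here the levels of the muscle factors are set against the time of day, the time of food and the amount of muscle in the sample.

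MyoD (Myod1), Myf5, MRF4 (Myf6) and myogenin (Myog) are basic helix-loop-helix proteins that pair with E proteins and bind E-boxes, short motifs of the form CANNTG, in the genes of skeletal muscle. Myf5 and MyoD commit cells to the muscle lineage, myogenin drives their differentiation, and MRF4 is the factor that prevails in mature fibres. Pax7 is a paired-box protein of satellite cells, which lie beside the fibres and rebuild them after injury. Rodent back skin carries a thin sheet of skeletal muscle, the panniculus carnosus, beneath the dermis, and Myod1 is known as a target of the clock proteins CLOCK and BMAL1 in skeletal muscle.

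The upstream window of Myog is printed because its E-boxes are the kind of site that the proteins of this family bind. It covers the 250 bases before the annotated start, chr1:134289754-134290003 on the plus strand, from RefSeq on GRCm38.p6. The table of windows matched Myog, Myf5 and Pax7 of the 5 genes. Capitals mark matches to CANNTG, which reads the same on both strands.
Myog: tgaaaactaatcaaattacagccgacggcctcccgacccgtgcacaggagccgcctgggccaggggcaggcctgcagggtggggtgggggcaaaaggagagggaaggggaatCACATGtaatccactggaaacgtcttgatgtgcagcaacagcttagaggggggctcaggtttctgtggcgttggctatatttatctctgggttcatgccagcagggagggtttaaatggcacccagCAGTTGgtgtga
The matches begin 138 and 12 bases before the start. CANNTG was present in 66.22% of 32851 windows of the same length, so its presence alone is common. CACGTG, the canonical E-box of the clock proteins, had 0 matches in the Myog window and was present in 6.021% of the windows, which says nothing of sites outside it.

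The 4 helix-loop-helix genes are compact, with spliced lengths of 1263 to 2083 bases, and Pax7 is longer in exons (5854 bases) and in introns. On GRCm38.p6, Myod1 (uc012fkv.1) lies on chromosome 7 from 46376474 to 46379092, plus strand, and Myog (uc007crl.2) on chromosome 1 from 134290004 to 134292548, plus strand. Myf5 (uc007gyz.1; chromosome 10, 107482908 to 107486927) and Myf6 (uc007gza.1; chromosome 10, 107492848 to 107494723) are neighbours on the minus strand, 5920 bases apart. Pax7 (uc008vms.1) spans 96472 bases of chromosome 4, from 139737059 to 139833530 on the minus strand, of which 90613 are intronic in its longest transcript. Among the 4 helix-loop-helix genes, the longest stretch of identical coding sequence was 26 bases, between Myod1 and Myf5, and the other pairs shared 11 to 21.

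The libraries held 13091637 to 26052550 exon reads and 7711093 to 17656714 intron reads in the rows used. Skeletal muscle markers were plentiful: Acta1, the actin of muscle fibres, reached 1429 to 4887 CPM (exon reads scaled to the size of the library) across the libraries. Skin markers were as the label has it, with Krt5 of basal keratinocytes at 1608 to 2693 CPM and the collagen gene Col1a1 at 7906 to 28995. Myh6 and Nppa of heart muscle stayed at or below 0.366 and 0.152 CPM. A library that bears on several results is ED at ZT28, which was the highest of its group for all 5 members and stood at 10.34 on the mean log2 CPM of 22 muscle fibre genes, where the other ED libraries did not exceed 9.82. The ED pool of ZT24 and the EN pool of ZT0 were high in genes of growing hair, with up to 958 and 2735 CPM summed over 7 genes. These are hair keratins and Tchh, which encodes trichohyalin.

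Per length of transcript, Myf6 was the most abundant member. By the authors' deposited RPKM, the medians over the 24 libraries were 7.58 for Myf6, 2.39 for Myod1, 1.35 for Myog, 0.246 for Myf5 and 0.163 for Pax7. Myf6 exceeded Myod1 in 24 of 24 libraries, Myod1 exceeded Myog in 22, and Myog exceeded Myf5 in 24. The lowest neighbours were not separated as cleanly, with Myf5 above Pax7 in 18 of 24. Deposited RPKM values are above 0 even where the count is 0, as for Pax7 in ED at ZT0 (0.0169), so this order is least firm at its lower end. The span of levels differed between genes: from the lowest to the highest library, Myod1 varied 20.3-fold, Myog 6.55-fold and Myf6 5.86-fold in CPM.

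Depth limits what can be said of the rarest members. Myod1 had 2233 exon reads over the series, Myog 1204 and Myf6 6469, against 226 for Pax7 and 173 for Myf5. The filter on low counts kept Myod1, Myog, Myf6 and Pax7 and dropped Myf5, which had 1 to 19 reads per library. Pax7 was kept mainly through libraries of the MD group, which had 10 to 34 reads, with help from libraries of ED and EN. A difference of MD from the other groups was thus partly built into its selection. In the intron rows only Pax7 was kept, with 1064 reads, and the other members had 14 to 117 reads in all.

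Myod1, a factor that commits cells to muscle, had its highest value of each feeding group within 8 h of the opening of food. In ED it stood at 2.76, 4.06, 2.39, 2.68, 2.31, 1.39, 2.51 and 12.9 CPM from ZT0 to ZT28. In MD the values at the same times were 3.46, 3.9, 12.4, 6.77, 10.8, 4.67, 5.84 and 7.56 CPM. In EN they were 3.27, 1.47, 0.637, 2.55, 5.87, 9.71, 7.67 and 2.82 CPM. The highest library of ED was taken 4 h after food opened, that of MD 3 h after and that of EN 8 h after, while the lowest of ED and EN were both taken 20 h after. Values at repeated clock times also differed: ED had 4.06 CPM at ZT4 and 12.9 at ZT28. This log2 difference of 1.65 exceeded 99.6% of genes between these pools, with genes not matched to Myod1 for read depth.

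**Figure D1:**
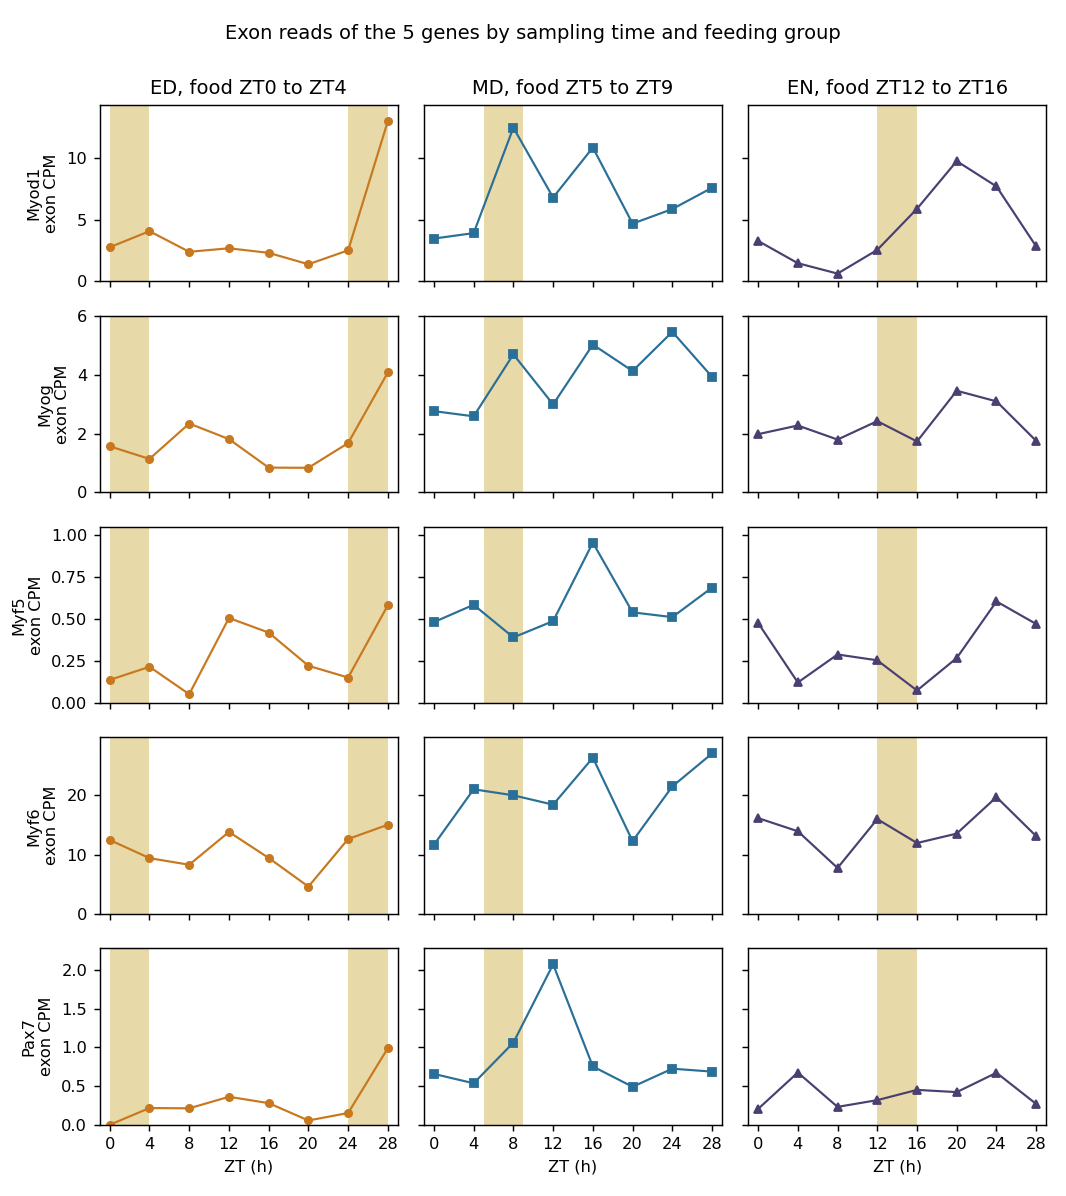
Exon CPM (vertical axis, 1 scale per gene) of the 5 members against sampling time in ZT hours, 1 library per point, with a column for each feeding group and the hours with food shaded. Myod1 is highest at ZT28 in ED (12.9 CPM), ZT8 in MD (12.4) and ZT20 in EN (9.71), and Pax7 peaks at ZT12 in MD (2.07).

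To compare food states, libraries taken 3 to 8 h after food opened (7 libraries) were set against those taken 19 to 24 h after it (9 libraries), with feeding group and clock time in the model and a class of 11 to 16 h (8 libraries) beside them. Myod1 ranged from 2.39 to 12.9 CPM at 3 to 8 h with a median of 6.77. Its range was 1.47 to 10.8 CPM at 11 to 16 h, with a median of 3.05, and 0.637 to 7.56 CPM at 19 to 24 h, with a median of 2.76. The early and late classes overlapped, and 3 of the 7 early libraries lay above all 9 late ones, a count not made for all genes.

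Myod1 was 3.49-fold higher at 3 to 8 h than at 19 to 24 h, a log2 difference of 1.80 ± 0.423 (SE, 24 libraries; edgeR quasi-likelihood test, adjusted p = 0.00700). Of 15719 genes tested, 4.85% passed in this comparison, 2.39% higher and 2.46% lower, and the median difference over all genes was 0.0022. Pax7, the satellite cell factor, was also higher, by 1.09 ± 0.330 (adjusted p = 0.0328). Myog and Myf6, the factors of differentiation and of mature fibres, did not pass, at 0.55 ± 0.321 and 0.29 ± 0.236 (adjusted p = 0.246 and 0.469). Since 1 library stands behind each time, these p-values measure the spread between pools. In whole skin, more muscle cells in a sample and more RNA of these genes per cell cannot be told apart. When the mean of the 22 muscle fibre genes was added to the model, Myod1 stood at 1.29 ± 0.418 and no longer passed (adjusted p = 0.0921), and Pax7 at 1.04 ± 0.394 (adjusted p = 0.150).

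**Figure D2:**
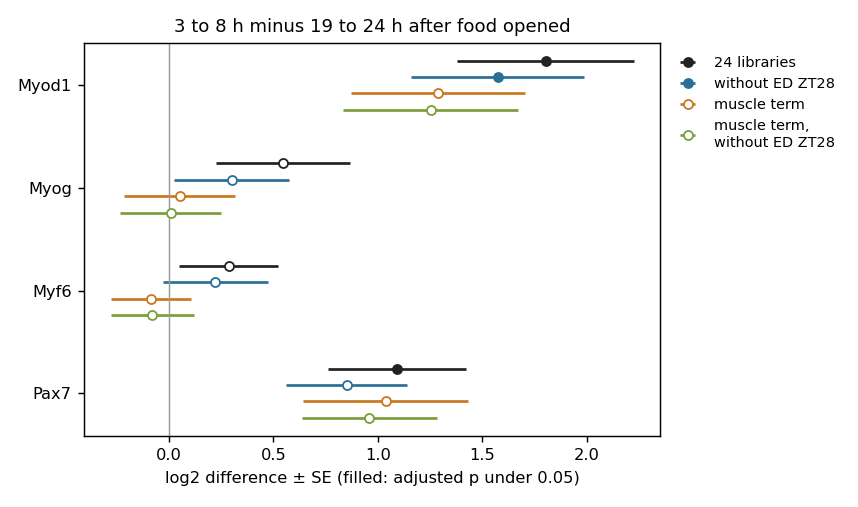
Log2 difference between libraries 3 to 8 h and 19 to 24 h after food opened (horizontal axis; bars are SE) for the 4 members tested, with 24 libraries, without the ED ZT28 pool, with a term for muscle fibre genes and with both changes. Filled points have an adjusted p under 0.05: Myod1 passes with 24 libraries (1.80) and without ED ZT28 (1.57), and Pax7 with 24 libraries alone (1.09).

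The ED ZT28 pool, taken 4 h after food, weighed on these values. Without it Myod1 stood at 1.57 ± 0.416 (adjusted p = 0.0416), Pax7 at 0.85 ± 0.290 (adjusted p = 0.137), Myog at 0.30 and Myf6 at 0.22. Over all 24 fits that each left out 1 library, Myod1 ranged from 1.57 to 2.20 and passed in each of them, whereas Pax7 lost its call in 10 of 24. Sample descriptions carry a code of L1 to L8, each shared by 3 libraries, and a model with this code as a factor gave 1.47 ± 0.782 for Myod1 (adjusted p = 0.261). Early and late libraries share a code in 2 cases. Under the first, all MD, Myod1 was 12.4 CPM in the early library against 3.46 and 3.9 in the late ones, and Pax7 1.06 against 0.536 and 0.658. Under the other, all EN, Myod1 was 5.87 CPM against 0.637 and 2.55, and Pax7 0.451 against 0.232 and 0.319. Early Myf6 was not above all late values under either code, and early Myog was so under the MD code alone. Early and late libraries under a code were taken at different clock times, so food class and clock time cannot be told apart there.

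Between the remaining classes no member passed. The difference between 11 to 16 h and 19 to 24 h was 0.54 ± 0.402 for Myod1 (adjusted p = 0.437), where 0.719% of genes passed. That between 3 to 8 h and 11 to 16 h was 1.27 ± 0.427 (adjusted p = 0.216), where 0.261% passed.

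Within feeding groups the Myod1 difference had the same sign. The fitted log2 difference was 1.69 ± 0.932 for the ED libraries, 2.10 ± 1.19 for MD and 2.07 ± 1.29 for EN. These fits take the effect of clock time from all 3 groups. Without it, the means of the early and late libraries of each group differed by 1.197 in ED (3 against 3 libraries), 0.88 in MD (2 against 4) and 2.44 in EN (2 against 2). The test that they differ gave an adjusted p of 0.991 in edgeR. It called 0 genes (0% of those tested; 773 at an unadjusted p under 0.05, and 2 in DESeq2), so it carries little information for any gene. The early and late libraries of Myod1 did not overlap in EN, with 2 against 2 libraries, and overlapped in ED and MD. The share of all genes without overlap in so few libraries was not counted.

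Pax7 rested on few exon reads, and its introns gave a further reading. Exon CPM of Pax7 ranged from 0.213 to 2.07 at 3 to 8 h (median 0.451), from 0.205 to 0.754 at 11 to 16 h (median 0.427) and from 0 to 0.725 at 19 to 24 h (median 0.319). Within each feeding group, the early libraries all lay above the late ones, with ED at 0.213 CPM or more against 0.152 or less. This order rests on few reads. The early libraries of ED had 4, 4 and 17 reads against 0, 1 and 2, and those of EN 6 and 11 against 4 and 5. How many of all genes separate in this way was not counted. In introns, the medians were 4.70, 3.0 and 2.27 intron CPM in the same order, with ranges that overlapped (1.42 to 10.7, 1.85 to 5.10 and 1.17 to 6.33). The intron difference between early and late libraries was 0.82 ± 0.309 (log2; edgeR, adjusted p = 0.0422), and 3.65% of 14611 genes were called higher in introns. It fell short without the ED ZT28 pool (0.64, adjusted p = 0.177) and with the muscle term (0.66, adjusted p = 0.255).

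Myog and Myf6 overlapped widely between the food classes. Myog ranged from 1.14 to 4.69 CPM at 3 to 8 h (median 2.99), from 0.840 to 5.03 at 11 to 16 h (median 2.13) and from 0.834 to 5.46 at 19 to 24 h (median 2.42). Myf6, the fibre factor, had medians of 13.6, 13.9 and 12.6 CPM in these classes, with a whole range of 4.61 to 27.1. For either gene, 0 of 7 early libraries lay above all late ones. Myf5 had medians of 0.269, 0.492 and 0.289 CPM on at most 19 reads a library and was not tested.

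A rhythm of 24 h was fitted in each feeding group next, to set light time against food time. No member passed in a single group, where 0.719% of genes passed in ED, 0.942% in MD and 1.06% in EN. Myod1 came closest in EN, with a log2 amplitude (mean to peak) of 1.59 ± 0.351 and a peak at ZT 19.7 ± 0.777 h (edgeR, adjusted p = 0.0511). ED gave an amplitude of 0.85 ± 0.340, peaking at ZT 5.33 ± 1.51 h (adjusted p = 0.181), and in MD 0.60 ± 0.334 at ZT 11.4 ± 2.15 h (adjusted p = 0.405). Counted from the opening of food, these peaks fell at 5.33, 6.42 and 7.74 h, within 1 SE of the MD peak for all 3 groups.

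A single rhythm shared by the groups passed for Myod1 in food time and did not pass in light time. In hours since food opened, the shared rhythm had an amplitude of 0.96 ± 0.210 and a peak at 6.77 ± 0.807 h (edgeR, adjusted p = 0.0162), where 1.29% of genes passed. In light time the shared amplitude was 0.19 ± 0.309 (adjusted p = 0.986; 0.668% of genes passed). The groups departed from a shared light time rhythm (adjusted p = 0.0234; 0.999% of genes) and did not pass for a departure from the shared food time rhythm (adjusted p = 0.541; 1.32% of genes). This result shares its libraries with the comparison of food states and is not independent of it. The food time rhythm also passed with the muscle term (amplitude 0.84, adjusted p = 0.0320), without the ED ZT28 pool (0.86, adjusted p = 0.0229) and with both changes (0.82, adjusted p = 0.0288). The light time amplitude was larger in the same fits and passed in none of them, at 0.50 with the muscle term (adjusted p = 0.487), 0.34 without the ED ZT28 pool (adjusted p = 0.733) and 0.53 with both changes (adjusted p = 0.428).

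**Figure D3:**
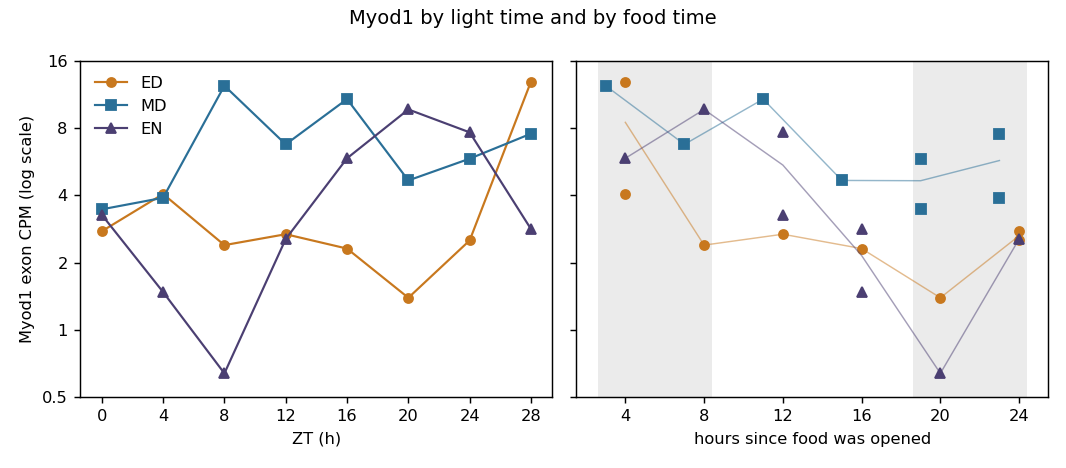
Myod1 exon CPM (vertical axis, log scale) against ZT hours (left) and against hours since food was opened (right), 1 library per point, with colour and shape for the feeding group. Lines join libraries in time on the left and the means of libraries at the same hour on the right, and shading marks 3 to 8 h and 19 to 24 h. The curves are apart on the left, where EN at ZT8 (0.637 CPM) faces MD at 12.4, and on the right the highest library of each group lies in the earlier shaded span (12.9 CPM in ED, 12.4 in MD and 9.71 in EN).

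The other members gave no call in either frame. Pax7 had a shared food time amplitude of 0.53 ± 0.195 with a peak at 8.01 ± 1.38 h (adjusted p = 0.257). Myog had 0.33 ± 0.146 with a peak at 7.31 ± 1.66 h (adjusted p = 0.396), and Myf6 0.24 ± 0.136 at 6.68 ± 2.07 h (adjusted p = 0.590). In light time their adjusted p-values were 0.525, 0.929 and 0.862.

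Core clock genes departed from a shared rhythm in both frames. Dbp, an output gene driven directly by the clock, did so in light time (edgeR, adjusted p = 4.64e-09) and in food time (4.28e-11). Arntl, which encodes BMAL1, likewise departed from both (4.82e-05 and 1.19e-06), as did Nr1d1, the gene of the repressor REV-ERBα, and Per2 of the negative limb. Tcap, a sarcomere gene known as a target of MyoD, did not pass for a departure in light time or food time (edgeR, adjusted p = 0.282 and 0.338). In the separate test of a shared rhythm it passed in neither frame (adjusted p = 0.223 in light time and 0.151 in food time).

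The rhythm itself was then compared between groups. Myod1 differed between EN and ED (edgeR, adjusted p = 0.0337; 0.401% of genes passed). It did not pass between EN and MD (adjusted p = 0.0988; 0.350%) or MD and ED (adjusted p = 0.305; 0.350%), and no other member passed in any pair. The EN and ED call ended without the ED ZT28 pool (adjusted p = 0.0587) and without the pools with hair keratins (adjusted p = 0.0517). The EN and MD difference passed without ED ZT28 (adjusted p = 0.0189) and with the muscle term (adjusted p = 0.0393).

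The mean level over the day was compared between the groups last. Myod1 ranged from 1.39 to 12.9 CPM in ED (median 2.60), from 3.46 to 12.4 in MD (median 6.31) and from 0.637 to 9.71 in EN (median 3.05). Median Myog was 1.62 CPM for ED, 4.03 for MD and 2.13 for EN. For Myf6 the medians in this order were 10.96, 20.5 and 13.7 CPM. Pax7 followed with 0.215, 0.706 and 0.370 CPM, and Myf5 with 0.219, 0.53 and 0.279. So MD had the highest median of all 5 members. The number of MD libraries above every ED library was 0 of 8 for Myod1, 4 for Myog, 3 for Myf5, 6 for Myf6 and 2 for Pax7. Leaving aside the ED ZT28 pool, a choice made after seeing the data, all 8 MD libraries exceeded the rest of ED for Myog. The number was 6 of 8 for Myod1 and Myf6, and 5 of 8 for Myf5. Pax7 also had all 8, given as a description, since mainly MD libraries brought it through the filter. The share of all genes that separate in this way was not counted.

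Myod1, Myog and Myf6 were higher in MD than in ED, in a comparison where 11.2% of genes were higher and 11.8% lower. Myog, the differentiation factor, was 2.48-fold higher (log2 1.31 ± 0.247; edgeR, adjusted p = 5.00e-04). Myod1 was 2.36-fold higher (1.24 ± 0.343, adjusted p = 0.00701) and Myf6 1.92-fold (0.94 ± 0.251, adjusted p = 0.00329). In EN against MD, the log2 difference was -1.04 ± 0.343 for Myod1 and -0.77 ± 0.247 for Myog (adjusted p = 0.0119 and 0.0111), where 14.4% of genes were lower and 15.9% higher. Myf6 missed the threshold there (-0.52 ± 0.251, adjusted p = 0.0511) and passed when scaled by library totals (-0.57, adjusted p = 0.0265). Pax7 was kept for testing mainly through its MD libraries. Its differences from MD, 1.57 ± 0.354 for MD minus ED and -1.002 ± 0.354 for EN minus MD, are therefore given as a description with no test. Between EN and ED no member passed, as edgeR called 0 genes at all (0%; 961 at an unadjusted p under 0.05, and 6 in DESeq2).

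**Figure D4:**
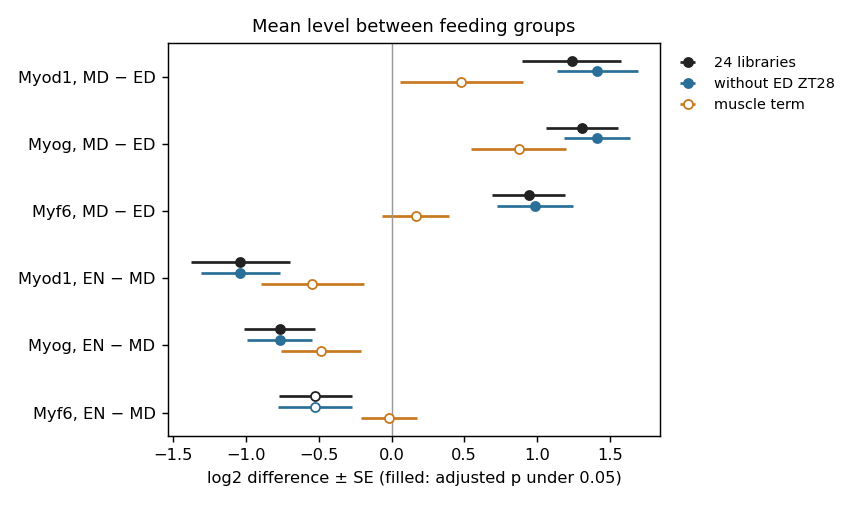
Log2 difference in mean level (horizontal axis; bars are SE) of Myod1, Myog and Myf6, for MD minus ED and EN minus MD, with 24 libraries, without the ED ZT28 pool and with a term for muscle fibre genes. Filled points have an adjusted p under 0.05: with 24 libraries all 3 are higher in MD than in ED, and with the muscle term none passes (Myod1 0.48, Myf6 0.16).

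Muscle fibre genes moved with the feeding group in the same direction. Their mean log2 CPM was 8.82 to 10.3 in ED (median 9.54), 9.54 to 10.4 in MD (median 10.3) and 9.24 to 10.4 in EN (median 9.87). Over all genes, 11.2% were higher in MD than in ED and 14.4% lower in EN than in MD. Of 22 fibre genes, 19 were higher in MD than in ED and 12 were lower in EN than in MD, with median log2 differences of 0.77 and -0.49. With their mean in the model, the MD minus ED difference was 0.48 for Myod1, 0.87 for Myog and 0.16 for Myf6, and none passed (adjusted p = 0.589, 0.118 and 0.673). That of Pax7 was 1.15. Other tissues differed as well: 6 fibroblast markers summed to 27058 to 42437 CPM in MD against 41572 to 69828 in ED, and 5 adipocyte markers to 604 to 979 against 1010 to 1498. Their part in the result was not tested.

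In the comparison of food states the fibre genes gave no call in edgeR, where 4.85% of all genes passed. Between 3 to 8 h and 19 to 24 h, 0 of the 22 passed (15 at an unadjusted p under 0.05), with a median log2 difference of 0.37. For a list of this size, 0 is near the share over all genes. DESeq2 called 2 of the 22, and 1139 genes in all. Summed over 6 fibre markers, the level was 7927 to 15778 CPM at 3 to 8 h and 5103 to 16531 at 19 to 24 h. Keratinocyte markers leaned the same way, at 6678 to 7861 CPM against 5306 to 7064 summed over 6 genes, and their part was not tested.

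Across the 24 libraries, Myf6 tracked the fibre genes most closely. Pearson's r with their mean was 0.86 for Myf6, 0.75 for Myog, 0.66 for Pax7 and 0.60 for Myod1, as a description over libraries that share scaling and design. Among the members, r was between 0.63 (Myod1 and Pax7) and 0.75 (Myog and Myf6).

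**Figure D5:**
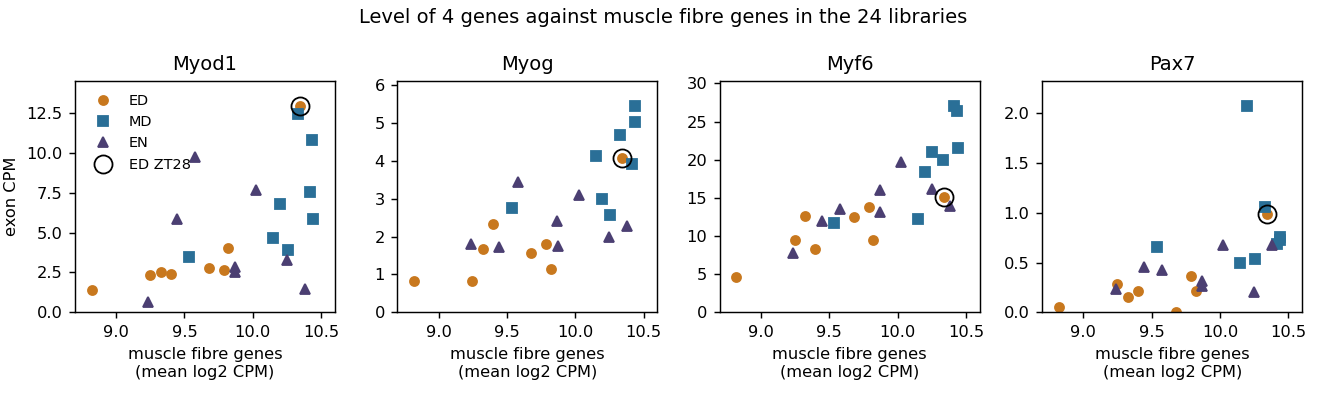
Exon CPM of 4 members (vertical axis, 1 scale per gene) against the mean log2 CPM of 22 muscle fibre genes (horizontal axis) in the 24 libraries, with colour and shape for the feeding group and a ring around the ED ZT28 pool. Myf6 rises along the axis (r = 0.86), and Myod1 is more scattered (r = 0.60), with EN ZT20 at 9.71 CPM and a fibre mean below the EN median of 9.87.

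The genes most like each member were named by the correlation of log2 CPM over the 24 libraries. Those of Myod1 were Nt5dc3, Dusp8, a phosphatase of MAP kinases, Dpp9, a dipeptidyl peptidase, Foxk2, a forkhead factor, Nisch, Hsf1, the main factor of the heat shock response, Anxa11 and Ankrd33b, with r from 0.82 to 0.79. Those of Myf6 were Cacng1, a calcium channel subunit of muscle, Mb, which encodes myoglobin, and Cox6a2, the muscle form of a respiratory chain subunit (r = 0.92, 0.90 and 0.89). Asb5, Sln, which encodes sarcolipin, and Dnajb5 were most like Myog (r = 0.90, 0.87 and 0.86), and Synpo2l, Dnajb5 and Hspb6 most like Pax7 (r = 0.87, 0.82 and 0.82). Of these genes, Mb is in the list of muscle fibre genes.

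Of 10 partners and cofactors of the family tested (11 listed), 1 passed in the food comparison, where 2.39% of all genes were higher and 2.46% lower, and 4 had an unadjusted p under 0.05. Srf, the serum response factor, was higher at 3 to 8 h than at 19 to 24 h (log2 0.35 ± 0.111; edgeR, adjusted p = 0.0492), and the list's median was 0.06. Srf stood at 0.20 with the muscle term (adjusted p = 0.346). Tcf3, which encodes the E proteins E12 and E47, stood at 0.29 ± 0.103 (adjusted p = 0.0783). Of 17 repressors tested, 0 passed (4 at an unadjusted p under 0.05, and 2 in DESeq2), with a median of 0.05. Id1, Id2 and Id3, which hold E proteins away from DNA, stood at -0.16, -0.014 and -0.0041 (adjusted p = 0.406, 0.953 and 0.982). Msc, the repressor musculin, had 169 reads over the series and was not tested.

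Of the embryonic regulators upstream of the family, 3 of 11 tested were higher soon after food and 0 lower, where 2.39% of all genes were higher and 2.46% lower. The list's median was 0.33, and with the muscle term none of the list passed. Eya1, a transcriptional coactivator, was higher by 0.48 ± 0.129 (log2; edgeR, adjusted p = 0.0425), at 5.27 ± 1.44 CPM at 3 to 8 h and 4.68 ± 1.55 at 19 to 24 h (SD). With the muscle term it stood at 0.48 (adjusted p = 0.143). Pax3, the relative of Pax7 in the embryo, stood at 0.44 ± 0.228 (adjusted p = 0.203).

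Among 13 satellite cell genes tested, other than Pax7, 1 was higher and 2 were lower after food, with a median of 0.14, where 2.39% of all genes were higher and 2.46% lower. Fgfr4, a receptor of fibroblast growth factors, was higher by 0.54 ± 0.157 (adjusted p = 0.0275). Cxcr4, a chemokine receptor, was lower (-0.62 ± 0.170, adjusted p = 0.0272), as was Spry1, an inhibitor of growth factor signals (-0.30 ± 0.0754, adjusted p = 0.0316). Cdh15, the cadherin of muscle precursors, stood at 0.14 ± 0.301 (adjusted p = 0.741). Calcr, the calcitonin receptor of resting satellite cells, had 75 reads and was not tested. With the muscle term Cxcr4 alone of these passed (-0.74, adjusted p = 0.0405).

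Of 18 target and differentiation genes tested, 0 passed in the food comparison in edgeR, where 4.85% of all genes passed. At an unadjusted p under 0.05 there were 6, DESeq2 called 1, and the list's median was 0.23. Tcap stood at -0.19 ± 0.232 (adjusted p = 0.684), and Chrna1, a subunit of the acetylcholine receptor, at 0.19 ± 0.143 (adjusted p = 0.454). Chrng, the fetal subunit of that receptor, had 6 reads in 4 libraries. Between MD and ED, 12 of the 18 were higher and 1 lower, where 11.2% of all genes were higher and 11.8% lower and 19 of the 22 fibre genes were higher. Among them were Tcap at 1.196 (adjusted p = 1.62e-04) and Actc1, the actin of heart and developing muscle, the lower one (-1.16, adjusted p = 0.0278). Of 13 satellite cell genes tested, 3 were higher and 1 lower in MD than in ED, with a median of 0.063. Cdh15 was among the higher ones, at 1.00 (edgeR, adjusted p = 0.0061).

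Genes of denervation and atrophy gave calls in both directions. Of 12 tested, Fbxo32, the ubiquitin ligase atrogin-1, was lower after food (-0.72 ± 0.238, adjusted p = 0.0390), at 88.9 ± 17.0 CPM against 157 ± 38.1 (SD), and Fbxo21 was lower (-0.43 ± 0.102, adjusted p = 0.0135). Cdkn1a, the cell cycle inhibitor p21 and a known target of MyoD, was higher (0.50 ± 0.152, adjusted p = 0.0342). With the muscle term Fbxo21 still passed (-0.54, adjusted p = 0.0093), and Fbxo32 (-0.82, adjusted p = 0.0706) and Cdkn1a (0.37, adjusted p = 0.229) did not. Of the clock list, 3 of 18 tested were higher after food and 8 lower, with a median of -0.49, where 2.39% of all genes were higher and 2.46% lower. The muscle term left 2 higher and 4 lower. Arntl and Npas2 were higher (1.08 and 1.18, adjusted p = 0.0075 and 0.0411), and Dbp was lower (-2.31, adjusted p = 0.0094). Arntl passed with that term (adjusted p = 0.0454), and Npas2 and Dbp did not (adjusted p = 0.205 and 0.0770). The food differences of Arntl and Dbp pool the feeding groups, and neither is shown to be common to them. Both genes departed from a shared food time rhythm (edgeR, adjusted p = 1.19e-06 and 4.28e-11). Counted from food opening, the Arntl peaks of ED, MD and EN fell at 0.847, 12.5 and 9.58 h. Those of Dbp fell at 12.4, 23.1 and 21.0 h, with the groups in the same order.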

How the data were processed

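Total RNA of whole back skin (RNA integrity number above 6.5) was made into stranded libraries, per the labels' protocols. The deposited table holds raw read counts for exon, intron and antisense rows, and a second deposited table holds RPKM made with cqn, per the file headers and names. The submitters' processing notes list TopHat2, SAMtools, HOMER and the build mm10 but no version numbers. Of rows sharing a symbol, that with the highest total was kept. The replicate numbers only name the sampling times and pair no samples. Counts were filtered by filterByExpr (minimum count 10, minimum total 15), scaled by TMM and tested with edgeR 4.0.16 in R 4.3.3 (quasi-likelihood, Benjamini-Hochberg, threshold 0.05). DESeq2 1.42.0 and limma 3.58.1 were alternatives. Estimates and SE came from least squares on log2 CPM (prior count 2). The food model had 14 residual degrees of freedom, and the rhythm model 15. The fits were tried on counts simulated with no difference in muscle content between libraries and no pool like ED ZT28. Such a trial cannot show how the tests hold where these are present. A library at the hour of opening counted as 24 h. Members and lists were chosen with earlier results of these data known. Named genes are all members, preset genes, up to 4 per direction of each list past the threshold, and those most correlated with a member. Some genes that this rule selects are not reported here.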

Additional observations from a re-analysis of the deposited data

Results flagged for a closer look

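Within each feeding group, a library was singled out where its gap to the next was above Dixon's critical share of the range of the 8 libraries, which chance gives in about 1 of 20 groups. Of 15 sets of libraries, 4 had such a library. In ED the ZT28 pool stood apart for Myod1 (12.9 CPM), Myog (4.08 CPM) and Pax7 (0.991 CPM). In MD the ZT12 pool stood apart for Pax7 (2.07 CPM, 34 reads), while its intron level of 4.98 CPM did not exceed the group median of 5.04. The libraries of a group were taken at different times of day, so a value that stands apart is not by itself an error.

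The rhythm of Myod1 differed between EN and ED in the edgeR test of the difference (adjusted p = 0.0337).

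Antisense rows, which no comparison used, held few reads over the 24 libraries: 10 for Myod1, 8 for Myog, 8 for Myf5, 7 for Myf6 and 23 for Pax7.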

How the results depend on the processing

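Each time point is 1 pool, and the counts of Pax7 and Myf5 limit what can be seen of them. The alternatives that leave out the ED ZT28 pool outside the 24 leave-one-out fits of food state, and the muscle term in introns or joined to that, were chosen after seeing the data. The causes of the changes below were not tested.

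Food state. With the muscle term Myod1 was 1.29 and Pax7 1.04, and without ED ZT28 as well 1.25 and 0.96. The L1 to L8 code gave 1.47 and 0.85. Pax7 also missed the threshold in limma on log2(RPKM + 0.1) and log2(RPKM + 1) (0.44 and 0.13), with no term for time of day (1.06), with cosine and sine (0.96) and without the libraries at food opening (0.94). DESeq2 gave it an adjusted p of NA, and without the second day it was not tested. Leaving out 1 library at a time gave 1.57 to 2.20 for Myod1 (adjusted p = 0.00437 to 0.0432), 0.850 to 1.26 for Pax7 and 302 to 1038 genes called, against 762 with all libraries. Those under 1 in 1.5 of that were without MD ZT4 (397), MD ZT12 (353), ED ZT20 (417), ED ZT28 (302), EN ZT8 (314), EN ZT12 (383) and EN ZT20 (315). Genes called were 373 without the second day, 229 with the muscle term, 194 with it and without ED ZT28, 99 with the code, 451 with no term for time and 344 without the opening libraries. By feeding group DESeq2 called 2 against 0. Pax7 introns gave 0.66 with the muscle term and 0.64 without ED ZT28, and intron genes called were 542 and 692 against 1244. Uncalled values that changed sign were Myf6 with the muscle term (-0.088, and -0.080 without ED ZT28), Myog with the code (-0.17) and Myod1 for EN minus ED with the muscle term (-0.066).

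Mean level. With the muscle term MD minus ED was 0.16 for Myf6, 0.48 for Myod1, 0.87 for Myog and 1.15 for Pax7, and EN minus MD was -0.55 for Myod1, -0.49 for Myog and -0.73 for Pax7. Genes called were 510 for MD minus ED (3608 without the term) and 1 for EN minus ED, where DESeq2 called 6 and edgeR 0. With library totals Myf6 passed for EN minus MD (-0.57, adjusted p = 0.0265). The values of Pax7 here are a description, since mainly MD libraries brought it through the filter. Without ED ZT28 the MD minus ED differences were 0.99 for Myf6, 1.41 for Myod1, 1.41 for Myog and 1.76 for Pax7.

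Rhythm. The EN amplitude of Myod1 passed in DESeq2 (1.60), with no filter (1.59), in limma on log2(RPKM + 0.1) (1.495), without the second day (1.68), with the muscle term (1.61), with each group alone (1.58) and without ED ZT28 (1.59). In ED it was 0.44 without ED ZT28. The size of the EN and ED difference was 2.38 without ED ZT24 and EN ZT0 and 1.99 without ED ZT28, both short of the threshold. The EN and MD difference passed in DESeq2 (2.06), with the muscle term (1.80), with sampling time as replicate block (2.00) and without ED ZT28 (2.00). Genes called in ED, MD and EN were 394, 494 and 348 in DESeq2, against 113, 148 and 166. With no filter MD had 237 and EN 323, the first day alone gave 24, 78 and 64, and fits of single groups 74, 19 and 313. Without ED ZT24 and EN ZT0, ED had 61 and EN 98, and with the muscle term ED had 51. For differences in rhythm DESeq2 called 210 (MD and ED), 271 (EN and ED) and 250 (EN and MD), against 55, 63 and 55. The replicate block gave 136 (EN and ED) and 95 (EN against MD), the muscle term 128 for EN and ED, and leaving out ED ZT24 and EN ZT0 34 for EN and MD. For shared rhythms DESeq2 called 332 in light time and 487 in food time, against 105 and 202, and for departures 603 and 608, against 157 and 208.

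With sampling time as replicate block, Myod1 in the food comparison was 1.80 ± 0.374 (adjusted p = 0.00248). Besides the EN and MD rhythm above, the block changed 1 call of a member: Myf6 passed for EN minus MD (-0.52, adjusted p = 0.0165).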

Other observations

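Of 17 repressors of the family tested, 5 were lower and 2 higher in MD than in ED, and 10 did not pass. In EN against MD, 5 were higher and 1 lower. Id1, Id2 and Id3 were lower in MD than in ED by log2 -0.39, -0.35 and -0.66 (edgeR, adjusted p = 0.0105, 0.0114 and 7.34e-04) and higher in EN than in MD by 0.47, 0.52 and 0.83 (adjusted p = 0.00225, 5.66e-04 and 6.97e-05). Twist1 and Hes1, which are expressed in many cells of skin, were lower in MD by -0.33 each (adjusted p = 0.0064 and 0.0146). Mstn, the gene of the muscle growth inhibitor myostatin, was higher in MD by 1.18 (adjusted p = 0.0016). Hdac4, a histone deacetylase, was also higher in MD (0.33, adjusted p = 0.0078). Over all genes, 11.2% were higher and 11.8% lower in MD than in ED, and 15.9% were higher and 14.4% lower in EN than in MD. These genes were named after their values were seen. All of them, the Id genes included, were read in whole skin, so the cells that held their RNA are not known. The 6 fibroblast markers summed to 27058 to 42437 CPM in MD, 41572 to 69828 in ED and 40452 to 77024 in EN, and their part was not tested.

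Repeated clock times gave a further reading of the spread between pools. On the second day Myod1 was higher than on the first in 5 of 6 pairs of pools. The log2 differences were -0.13 and 1.65 in ED, 0.74 and 0.94 in MD, and 1.2 and 0.89 in EN. The median absolute difference over all genes was between 0.137 and 0.264, with genes not matched to Myod1 for read depth. How many of all genes rose in as many pairs was not counted.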
